A study of Mus musculus with 12 samples.

Results

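The genes described here are the metallothioneins Mt1, Mt2 and Mt3, their metal-sensing transcription factor Mtf1, the zinc exporter Slc30a1 and the zinc importer Slc39a10, which are 6 of the 57010 genes in the table. They were picked by name, and Mt2 because it is lower in Faf2 KO cells treated with retinoic acid (RA) than in WT cells treated with RA, so that the values of that comparison chose the set and are given below as a description, with no test. The cells are NE-4C cells, a neural progenitor line from embryonic mouse brain that was immortalised by loss of p53, a background that all groups share. The KO cells come from colonies of edited cells in which a pair of guide RNAs with Cas9 removed exon 4 of Faf2, the gene of an adaptor of endoplasmic reticulum-associated degradation. They are described as a single line, so that effects of the deletion and of the clone cannot be told apart. WT and KO cells of the WT NO and KO NO groups had no RA and were collected on day 0, and those of the WT RA and KO RA groups were given 1 µM all-trans RA for 24 h, moved to growth medium and harvested on day 3, so that RA and the days in culture move together. Each of the 4 groups holds 3 libraries of poly-A RNA from separate passages, 12 in all.

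Metallothioneins are small, cysteine-rich proteins that bind zinc and copper in the cytosol and buffer their free concentration. When free zinc rises, MTF1 binds it, moves to metal response elements near the starts of metallothionein genes and of Slc30a1, and raises their transcription. SLC30 proteins (ZnT) move zinc out of the cytosol, to the outside or into organelles, whereas SLC39 proteins (ZIP) move it in. Mt1 and Mt2 are widely expressed and also respond to glucocorticoids and to oxidative stress, Mt3 is known as the form of the brain, and Mt4 as that of stratified epithelia.

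The 4 metallothionein genes lie side by side on chromosome 8 (GRCm39, GENCODE vM39), all on the plus strand. They are Mt4 (chr8:94863825-94865661), Mt3 (chr8:94879220-94881088), Mt2 (chr8:94898819-94900207) and Mt1 (chr8:94905710-94906955), within 43.1 kb. Mt2 ends 5.5 kb before Mt1 begins. Mtf1 lies at chr4:124695897-124743593, Slc30a1 at chr1:191638808-191645361 and Slc39a10, on the minus strand, at chr1:46845872-46964964. The longest run of bases that annotated transcripts of Mt1 and Mt2 share is 20, and no stretch of 31 bases is common to any pair of the 4 metallothioneins.

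The sites at which MTF1 could bind are shown for the 3 metallothioneins with reads and for Slc30a1, the exporter known as a target of MTF1. The core of the metal response element was searched as TGCACNC or TGCGCNC on both strands within 250 bases on each side of the start of the canonical transcript. The window holds 5 matches in Mt1, 7 in Mt2, 3 in Mt3, 3 in Slc30a1 and 1 in Mt4, and no match in Mtf1 or Slc39a10. Of 21770 windows of the same length around protein-coding genes, 42% hold at least 1 match, 5.53% at least 3, 0.565% at least 5 and 0.0551% at least 7. These are matches of letters, not bound sites. Each match of Mt1, Mt2, Mt3 and Slc30a1 is printed on the plus strand, with the core in capitals and 6 bases on each side.
Mt1, chr8:94905688-94905706: ccgctgTGCACACtggcgc
Mt1, chr8:94905713-94905731: gagctcTGCACTCcgcccg
Mt1, chr8:94905731-94905749: gaaaagTGCGCTCggctct
Mt1, chr8:94905795-94905813: cctgctGGGTGCAaaccct
Mt1, chr8:94905809-94905827: acccttTGCGCCCggactc
Mt2, chr8:94899017-94899035: cgcctcTGCACCCggcccc
Mt2, chr8:94899112-94899130: acccttTGCGCTCagctcc
Mt2, chr8:94899190-94899208: gagggcGTGTGCAggctct
Mt2, chr8:94899244-94899262: cgggtcGTGCGCAggccca
Mt2, chr8:94899298-94899316: aagggcGTGTGCAggcggc
Mt2, chr8:94899317-94899335: gggggcGCGTGCAtggtgc
Mt2, chr8:94899351-94899369: agctttTGCGCTCgaccca
Mt3, chr8:94879256-94879274: cagcagTGCACACacacgg
Mt3, chr8:94879283-94879301: cgctgtGCGTGCAtagggg
Mt3, chr8:94879315-94879333: gctgctTGCGCGCccccgc
Slc30a1, chr1:191638602-191638620: cgccgcTGCACCCggccgc
Slc30a1, chr1:191638844-191638862: ggttccGAGTGCAaagcaa
Slc30a1, chr1:191638917-191638935: cgggccGAGCGCAgtcgcc

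The core of the antioxidant response element (TGACNNNGC, both strands, no overlap with the sites above) was found once each in the windows of Mt1, Mt2 and Slc30a1. It is in 20% of all windows.

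**Figure D1:**
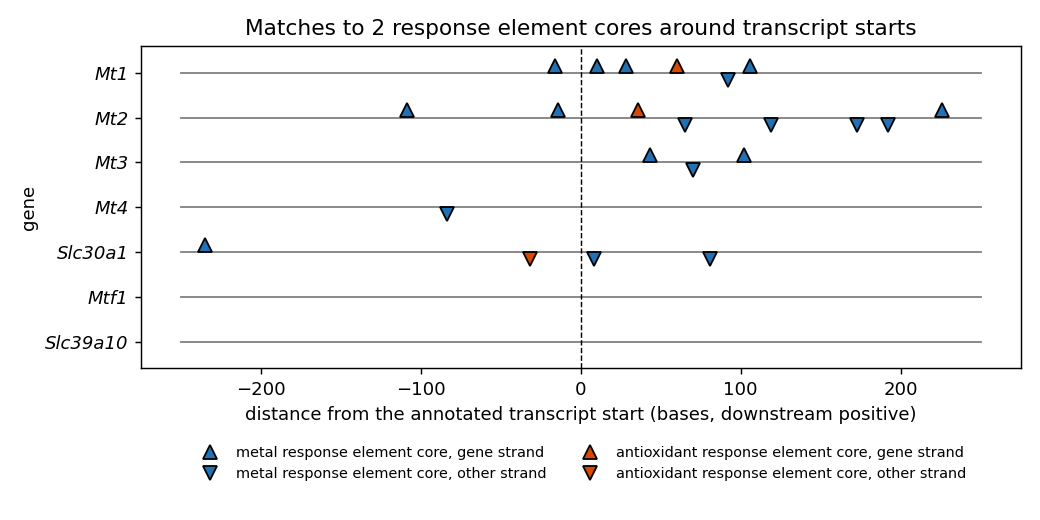
Matches to the metal response element core (blue) and the antioxidant response element core (orange), plotted by gene against the distance in bases from the annotated transcript start; triangles point up for the gene's strand and down for the other. Mt1 has 5 and Mt2 7 blue matches, whereas Mtf1 and Slc39a10 have none.

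Levels are given as CPM, that is, counts put on the same total in each library with TMM factors, and since the deposited counts appear to be corrected for transcript length, they can be compared between genes as well as between samples. Library totals ran from 17370049 to 30738694. KO RA replicate 3 stands apart, with a TMM factor of 0.3935 where the others lie between 0.8721 and 1.277 and with 23.47% of its counts in mitochondrial genes where the others have 9.102% to 17.69%. Tests and medians that it moves are also given without it. Faf2 itself was between 36.0 and 50.0 CPM in WT NO, 35.1 and 49.1 in WT RA, 21.0 and 25.4 in KO NO and 18.7 and 36.1 in KO RA, so that the genotypes separated without RA and overlapped with RA. The value covers the whole gene and not the deleted exon alone. The summed level of 8 neural progenitor markers was 475 to 503 CPM in WT NO, 545 to 733 in WT RA, 379 to 427 in KO NO and 788 to 967 in KO RA, and each of the 8 was above 3 counts in at least 1 library of every group. Vim was the largest part of the sum in KO RA (435 to 639 CPM). Of the 8, 7 had a positive log2 fold change in KO RA against KO NO and 5 in KO RA against WT RA. Otx2 had a lower mean in KO RA (68.6 CPM) than in KO NO (152 CPM). Pax6 had a lower mean in KO RA (2.98 CPM) than in WT RA (13.8 CPM). Markers of other cell types moved with the groups as well. Those of mesenchymal cells (7 genes) summed to 43.4 to 98.5 CPM in WT NO, 94.9 to 265 in WT RA, 46.1 to 47.6 in KO NO and 201 to 1041 in KO RA. Those of endothelial cells (5 genes) summed to 0.591 to 2.81 CPM in WT NO, 1.48 to 2.33 in WT RA, 1.07 to 2.01 in KO NO and 6.15 to 13.3 in KO RA, with Cdh5 at 0 in every library of WT NO and KO NO and Emcn in every library of KO NO. Neuronal markers (6 genes) summed to 77.6 to 107 CPM in WT NO, 138 to 158 in WT RA, 69.5 to 87.2 in KO NO and 141 to 203 in KO RA. Of these 6, 4 had a positive log2 fold change in WT RA against WT NO and 5 in KO RA against KO NO. Rbfox3 was lower after RA in both genotypes, with means of 2.37 and 0.353 CPM in WT NO and WT RA. Its means in KO NO and KO RA were 1.62 and 0.445 CPM. Astroglial markers (7 genes) summed to 171 to 260 CPM in WT NO, 207 to 244 in WT RA, 175 to 280 in KO NO and 99.5 to 250 in KO RA, with Aqp4 at 0 throughout WT NO and WT RA and S100b throughout WT NO, WT RA and KO RA. Most of that sum was Gja1, at 88.0 to 265 CPM over all libraries, whereas Gfap never exceeded 0.191 CPM. Haematopoietic markers (5 genes) summed to between 2.11 and 5.35 CPM over all libraries, with Hbb-bt at 0 throughout. KO RA replicate 3 set the upper end of the KO RA sums of progenitor, mesenchymal and neuronal markers. It set the lower end of those of endothelial and astroglial markers. Most of its mesenchymal sum was Tagln, at 763 CPM, against 78.8 and 45.4 CPM in replicates 1 and 2 of KO RA. The part of such cells in the results below was not tested, and in bulk RNA fewer cells of a type and less RNA per cell cannot be told apart.

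Mt1 was the most abundant metallothionein in 11 of the 12 libraries. It stood at 61.1, 49.6 and 107 CPM in WT NO, 429, 274 and 255 CPM in WT RA, 188, 159 and 149 CPM in KO NO and 70.1, 148 and 30.0 CPM in KO RA. The WT RA libraries were thus the highest of all, KO NO came next, and WT NO and KO RA overlapped at the bottom. In WT RA its mean was above that of 97.8% of the 16502 tested genes, and in WT NO above that of 89.4%. Group means ± SD (n = 3) were 72.5 ± 30.3 CPM in WT NO, 82.7 ± 59.99 in KO RA, 165 ± 20.1 in KO NO and 319 ± 95.4 in WT RA. The gap between KO RA and KO NO in this order is small, since the highest KO RA library had 148.0 CPM and the lowest KO NO library 149.3. Without TMM factors the same KO RA library had 181 CPM and the KO NO libraries 219, 175 and 179, and the groups overlapped.

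Mt2 was also highest in WT RA, followed by KO NO, with a smaller SD than Mt1 in WT NO, WT RA and KO RA but not in KO NO. It stood at 43.5, 40.7 and 62.9 CPM in WT NO, 167, 145 and 110 CPM in WT RA, 125, 84.7 and 92.8 CPM in KO NO and 37.0, 47.2 and 35.1 CPM in KO RA. Means ± SD (n = 3) were 39.7 ± 6.49 CPM in KO RA, 49.0 ± 12.1 in WT NO, 101 ± 21.6 in KO NO and 141 ± 28.9 in WT RA. KO RA overlapped with WT NO and KO NO with WT RA, whereas no library of KO RA or WT NO reached a library of KO NO or WT RA. Without TMM factors the KO RA libraries spread more widely, at 47.2, 57.7 and 13.8 CPM. They still lay below every KO NO library. Mt1 and Mt2 are products of neighbouring genes, and their ratio within a library does not depend on how libraries are scaled. Mt1 was 1.41, 1.22 and 1.70 times Mt2 in WT NO, 2.57, 1.89 and 2.33 times in WT RA, and 1.498, 1.88 and 1.61 times in KO NO. In KO RA it was 1.90, 3.14 and 0.856 times Mt2, and replicate 3 of that group was the one library with more Mt2 than Mt1.

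**Figure D2:**
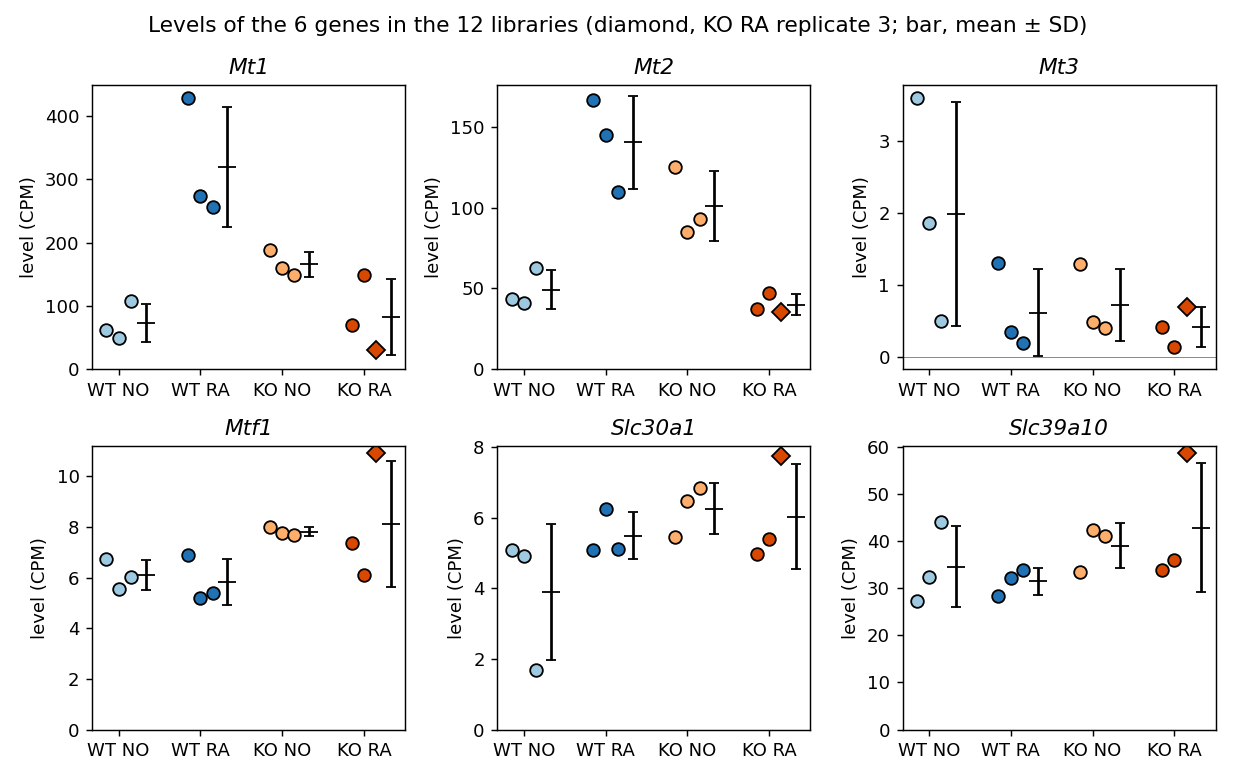
Level (CPM, TMM scaled) of each of the 6 genes in the 12 libraries by group, 1 point per library (3 per group), with the mean ± SD beside the points and KO RA replicate 3 as a diamond. Mt1 and Mt2 are highest in WT RA and lie in KO RA below every KO NO library (for Mt1 not without TMM factors), while Mtf1, Slc30a1 and Slc39a10 stay within a narrow range apart from single libraries.

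Mt3, the brain form, was low and in some libraries near the limit of detection. It stood at 3.59, 1.85 and 0.488 CPM in WT NO, 1.30, 0.339 and 0.191 CPM in WT RA, 1.29, 0.474 and 0.391 CPM in KO NO and 0.406, 0.136 and 0.694 CPM in KO RA. WT NO held the 2 highest libraries, but its lowest overlapped with every other group. The lowest libraries held 4 counts for Mt3. Genes of similar length that were above 0 in 1 library had a median of 2.3 counts there. The lowest values therefore rest on very few fragments, while the highest library, in WT NO, held 102 counts. Mt4 was at 0 in all 12 libraries, for which 3 counts would correspond to between 0.0838 and 0.297 CPM.

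Mtf1 stood at 6.73, 5.54 and 6.01 CPM in WT NO, 6.87, 5.19 and 5.40 CPM in WT RA, 7.997, 7.76 and 7.68 CPM in KO NO and 7.36, 6.10 and 10.9 CPM in KO RA. Every KO NO library was above every WT library of either treatment, and KO RA overlapped with all groups. Slc30a1, which encodes the exporter ZnT1 of the plasma membrane, stood at 5.07, 4.92 and 1.68 CPM in WT NO, 5.10, 6.26 and 5.11 CPM in WT RA, 5.45, 6.46 and 6.84 CPM in KO NO and 4.97, 5.38 and 7.73 CPM in KO RA. The low end belongs to a single library, WT NO replicate 3. Slc39a10, which encodes the importer ZIP10, stood at 27.2, 32.4 and 44.1 CPM in WT NO, 28.4, 32.2 and 33.9 CPM in WT RA, 33.5, 42.3 and 41.1 CPM in KO NO and 33.9, 36.0 and 58.6 CPM in KO RA. For these genes KO RA replicate 3 was the highest of its group only after TMM scaling. In CPM of the library total, without TMM factors, it was the lowest of the 12 libraries for Mtf1 (4.29) and Slc39a10 (23.0), and second lowest for Slc30a1 (3.04).

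KO RA against WT RA is the comparison that chose the set. Mt2 was 3.54 times lower by the ratio of means (log2 fold change −1.82, SE 0.27), and −1.75 without KO RA replicate 3. Mt1 was 3.86 times lower (−1.95, SE 0.51), and −1.56 without that library, but −2.66 without KO RA replicate 2. The other members were at log2 fold changes of −0.64 (SE 0.95) for Mt3, 0.47 (0.25) for Mtf1, 0.13 (0.38) for Slc30a1 and 0.44 (0.26) for Slc39a10. Without replicate 3 of KO RA these were −1.19, 0.20, −0.09 and 0.15, and for Mt3 the value was 0.55 without WT RA replicate 1. The groups did not overlap for 3 of 6 members, Mt1, Mt2 and Slc39a10, and for 20.9% of all tested genes. For Slc39a10 the margin was between 33.87 CPM in WT RA and 33.94 CPM in KO RA, and it was lost without TMM factors. Of all tested genes 1.24% were called in this comparison (146 higher and 59 lower in KO RA). The share without KO RA replicate 3 was 9.85%, with 765 higher and 942 lower, so that the balance of directions turned, and nothing is read from the members' place among them.

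Whether loss of Faf2 alters these genes without RA was asked with KO NO against WT NO, which shares no library with the comparison that chose the set. Mt1 was 2.28 and Mt2 2.06 times higher in KO NO by the ratio of means, with every KO NO library above every WT NO library for both. In edgeR's quasi-likelihood test this difference was not called for either. The log2 fold change was 1.04 for Mt2 (SE 0.26, adjusted p = 0.0978) and 1.19 for Mt1 (SE 0.50, adjusted p = 0.356). Of the 6 members 0 were called, beside 1.14% of all tested genes, and 2, Mt1 and Mt2, had an unadjusted p under 0.05. DESeq2 called 1 member (Mt2), beside 6.15% of all genes, and limma-voom 3 (Mt1, Mt2 and Mt3), beside 21.6%. Without KO RA replicate 3, which is in neither group but widens the shared spread, edgeR called 8.78% of all genes, with Mt2 among them (log2 fold change 1.05, SE 0.22, adjusted p = 0.0195) and Mt1 not (adjusted p = 0.0526). The remaining members were at −1.45 for Mt3 (SE 0.89, adjusted p = 0.596), 0.36 for Mtf1 (0.25, adjusted p = 0.667), 0.69 for Slc30a1 (0.37, adjusted p = 0.522) and 0.17 for Slc39a10 (0.26, adjusted p = 0.910). The value of Mt3 was −0.69 without WT NO replicate 1 and −2.18 without KO NO replicate 1.

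The response to RA of WT cells was taken from WT RA against WT NO. It shares the WT RA libraries with the comparison that chose Mt2, so Mt2 is given with no test here. Mt1 ran closely with Mt2 across libraries, and its tests in the RA groups are not independent of that choice. Mt2 was 2.87 times higher in WT RA (log2 fold change 1.52, SE 0.27). Mt1 was 4.41 times higher (2.14, SE 0.51), every WT RA library lay above every WT NO library, and the test did not call it (adjusted p = 0.107). Of the 5 members other than Mt2, 0 were called by edgeR and 1, Mt1, had an unadjusted p under 0.05. Of all tested genes 0.406% were called. DESeq2 and limma-voom each called 1, Mt1, and so did edgeR without KO RA replicate 3 (adjusted p = 0.00621), where the shares of all genes were 5.6%, 21.6% and 10.8%. Mt3 was at −1.69 (SE 0.91, adjusted p = 0.501; −0.93 without WT NO replicate 1 and −2.88 without WT RA replicate 1), Mtf1 at −0.07 (0.25, adjusted p = 0.962), Slc30a1 at 0.50 (0.38, adjusted p = 0.668) and Slc39a10 at −0.14 (0.26, adjusted p = 0.903).

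In KO cells Mt1 and Mt2 stood lower after RA than without it. Mt2 was 2.54 times lower in KO RA than in KO NO (log2 fold change −1.34, SE 0.27; −1.27 without KO RA replicate 3). Mt1 was 2.00 times lower (−0.998, SE 0.50) and not called (adjusted p = 0.229). Its size rested on single libraries, since it was −0.61 without KO RA replicate 3 (adjusted p = 0.308) and −1.71 without replicate 2, when it was called (adjusted p = 0.0496). None of the 5 members other than Mt2 was called, and 0 had an unadjusted p under 0.05, while DESeq2 and limma-voom also called 0 of them. Of all tested genes edgeR called 5.48% (16% without KO RA replicate 3), DESeq2 15.9% and limma-voom 27.5%. Over all tested genes the median log2 fold change stood at 0.11 (−0.02 without KO RA replicate 3). Mt3 was at −0.88 (SE 0.94, adjusted p = 0.585), Mtf1 at 0.05 (0.25, adjusted p = 0.920), Slc30a1 at −0.06 (0.37, adjusted p = 0.934) and Slc39a10 at 0.13 (0.26, adjusted p = 0.771). With KO RA replicate 3 left out these were −1.43, −0.23, −0.28 and −0.17, and Mt3 was at −0.10 without KO NO replicate 1. The signs of the last 3 changed with the settings or the libraries used. In the same KO RA libraries the summed progenitor, neuronal, mesenchymal and endothelial markers all lay above those of KO NO. The astroglial and haematopoietic sums overlapped between the 2 groups. Any link of these sums to the levels of Mt1 and Mt2 was not tested.

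Mt1 and Mt2 were the members for which every WT RA library lay above every WT NO library and every KO RA library below every KO NO library, a pattern shown by 82 of the 16502 tested genes (0.497%). For Mt1 it did not hold without TMM factors. The pattern draws on the RA values that chose Mt2, so the share is given as a description only. The RA response in KO minus that in WT was −2.86 on the log2 scale for Mt2 (SE 0.38), given with no test. For Mt1 it was −3.14 (SE 0.71), with an unadjusted p of 0.000986 and an adjusted p of 0.271 for the interaction term in edgeR. The term contains the comparison that chose the set, and Mt1 ran closely with Mt2. Tests of Mt1 for this term are therefore not independent of that choice. No gene in the table was called for this term by edgeR (1423 had an unadjusted p under 0.05), while DESeq2 called 309 (1.87%) and limma-voom 985 (5.97%). Of the 5 members other than Mt2, edgeR called 0, with 1 (Mt1) at an unadjusted p under 0.05, and DESeq2 and limma-voom each called Mt1. Without KO RA replicate 3 edgeR called 232 genes (1.34%), with Mt1 among them (−2.75, SE 0.52, adjusted p = 0.0366), and without KO RA replicate 2 the difference for Mt1 was −3.84. The other 4 members had differences of 0.81 (Mt3, SE 1.31), 0.11 (Mtf1, 0.35), −0.56 (Slc30a1, 0.53) and 0.27 (Slc39a10, 0.37), each smaller than or close to its own SE. They were 0.25 (SE 1.40), −0.17 (0.25), −0.79 (0.51) and −0.03 (0.26) without KO RA replicate 3, so that Slc30a1 was then beyond its SE. Over all single libraries left out the value of Mt3 ran from 0.09 to 2.00.

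**Figure D3:**
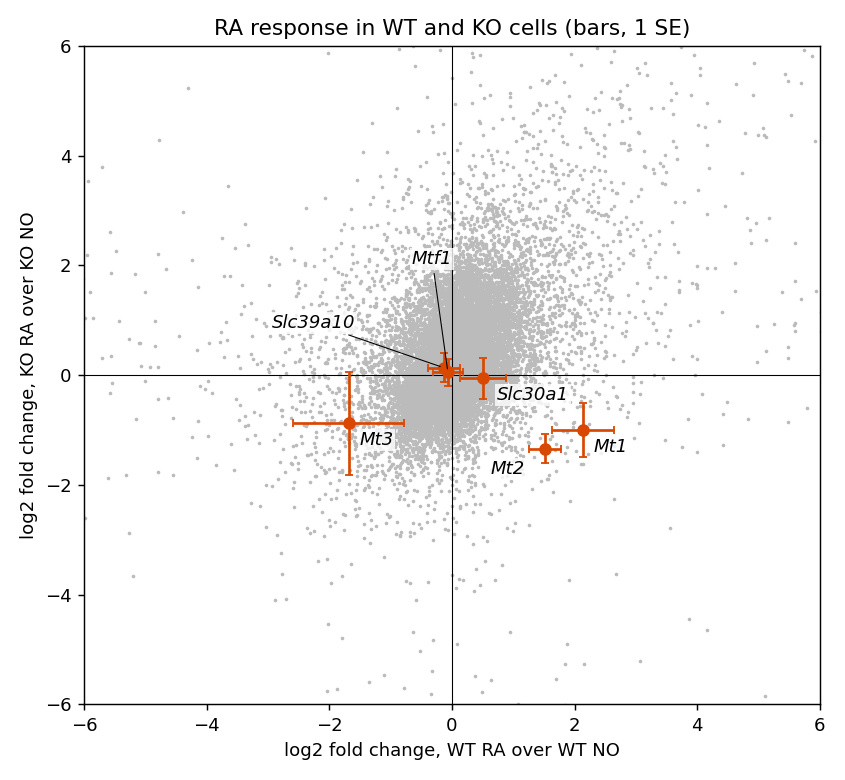
Log2 fold change of RA over NO in KO cells (vertical axis) against that in WT cells (horizontal axis) for the 16212 tested genes within ±6 on both axes (grey; 290 lie beyond), with the 6 members in orange and bars of 1 SE. Mt1 and Mt2 lie at 2.14 and −0.998 and at 1.52 and −1.34, in the lower right, and Mtf1, Slc30a1 and Slc39a10 near the centre.

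The other zinc transporters were looked at as a list of 22 genes, of which 18 passed the filter on low values. Slc30a8 was at 0 in all libraries, Slc39a5 and Slc39a12 never exceeded 3 counts, and the fourth gene left out was Slc30a10, at 0.0279 to 0.526 CPM. By the mean over the 12 libraries the highest exporter was Slc30a9, which serves mitochondrial zinc, at 35.2 to 55.2 CPM, although in KO RA replicate 3 Slc30a7 (54.6 CPM) was above it (40.5 CPM). By the same mean the highest importer was Slc39a8 (ZIP8), which also carries manganese and iron. Slc39a8 stood at 187, 156 and 38.2 CPM in WT NO, 174, 123 and 194 CPM in WT RA, 152, 173 and 170 CPM in KO NO and 75.0, 80.7 and 60.7 CPM in KO RA, so that 1 WT NO library was far below its group and there below Slc39a7 (89.0 CPM) and Slc39a10. Its KO RA libraries lay below every KO NO and WT RA library, at log2 fold changes of −1.19 against KO NO (SE 0.45, adjusted p = 0.142) and −1.18 against WT RA (SE 0.45, adjusted p = 0.224), neither of which was called. Each was called in 1 of the 12 fits with a single library left out. It was the fit without WT NO replicate 3, the library far below its group, which is in neither comparison.

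Of the 18 tested transporters, 1 was called in KO NO against WT NO, 0 in WT RA against WT NO, 2 in KO RA against KO NO and 0 in KO RA against WT RA, beside 1.14%, 0.406%, 5.48% and 1.24% of all genes. In the comparisons with none, 3 and 6 had an unadjusted p under 0.05. DESeq2 called 1 and 4 of them there, beside 5.6% and 7.97% of all genes, and limma-voom 3 and 5, beside 21.6% and 18.1%. Without KO RA replicate 3 edgeR called 3 in each of the 4 comparisons, beside 8.78%, 10.8%, 16% and 9.85% of all genes. The medians of their log2 fold changes were 0.23, 0.08, 0.06 and 0.11 in that order, beside −0.02, −0.0084, 0.11 and 0.09 for all genes. The last 2 of these medians changed sign without KO RA replicate 3, to −0.18 and −0.14, beside −0.02 and 0.01 for all genes. Slc39a4 (ZIP4), best known as the importer for dietary zinc, stood at 0.247, 0.259 and 0.610 CPM in WT NO, 0.529, 0.242 and 0.382 CPM in WT RA, 1.99, 2.40 and 2.71 CPM in KO NO and 0.271, 0.715 and 0.496 CPM in KO RA. The KO NO libraries lay above all others. It was higher in KO NO than in WT NO (log2 fold change 2.65, SE 0.55, adjusted p = 0.0477) and fell by 2.24 on the log2 scale from KO NO to KO RA (SE 0.55, adjusted p = 0.0399). Both calls were near the threshold and each was lost with 9 of the 12 libraries left out in turn, the highest adjusted p over all alternatives being 0.183 and 0.140. The first stayed only without WT NO replicate 3 or KO RA replicate 1 or 3, and the second only without WT NO replicate 3 or KO RA replicate 2 or 3. Slc39a13 (ZIP13), an importer of intracellular vesicles and the Golgi, stood at 2.96, 4.09 and 4.22 CPM in KO NO and 10.3, 9.71 and 6.64 CPM in KO RA, with 3.42 to 4.19 CPM in WT NO and 4.35 to 5.29 CPM in WT RA. It was higher in KO RA than in KO NO (1.25, SE 0.26, adjusted p = 0.0198), a call lost when any 1 of the 3 KO NO libraries was left out. Slc39a3 was 4.02 times higher in WT RA than in WT NO, without overlap. EdgeR did not call it (adjusted p = 0.107), but did without KO RA replicate 3 (0.0141). Slc30a2 was 3.60 times higher in KO NO than in WT NO, also without overlap. Its adjusted p in edgeR was 0.107, and 0.0238 without KO RA replicate 3.

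**Figure D4:**
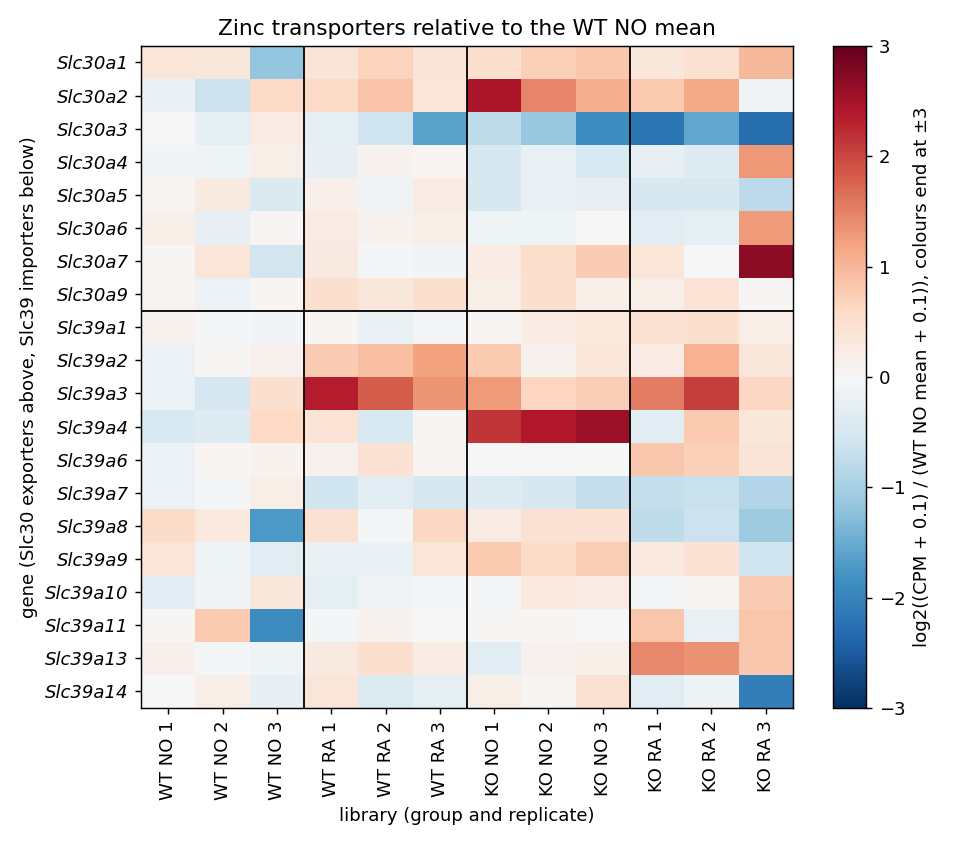
Heat map of the 20 tested zinc transporters, with Slc30a1 and Slc39a10 among them, in the 12 libraries, as log2 of CPM + 0.1 over the WT NO mean + 0.1 (red higher, blue lower, colours ending at ±3). Slc39a4 and Slc30a2 are red in the 3 KO NO libraries, Slc39a13 in the 3 KO RA libraries and Slc39a3 in the 3 WT RA libraries. KO RA replicate 3 and WT NO replicate 3 show single-library values for several genes.

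Genes of other systems that act on metallothioneins or share their metals were counted in the same way. Of 11 genes of copper handling, 9 of the glucocorticoid response and 8 of the oxidative stress response, all tested, edgeR called 0 in each of the 4 comparisons, where it called the 1.14%, 0.406%, 5.48% and 1.24% of all genes given above. Without KO RA replicate 3 it called 1, 2, 4 and 3 genes of copper handling in that order, 0, 2, 0 and 0 of the glucocorticoid response and 2, 2, 1 and 0 of the oxidative stress response, with all copper genes called in the last 2 comparisons lower in KO RA. Unadjusted p under 0.05 was reached by at most 1 gene of copper handling, at most 1 of the glucocorticoid response, and 2 or 3 of the oxidative stress response. DESeq2 called 0 genes of copper handling, at most 1 of the glucocorticoid response and at most 2 of the oxidative stress response in a comparison, and limma-voom at most 4, 3 and 5. The median log2 fold changes were 0.11, 0.08, −0.0010 and 0.16 for copper handling, −0.14, 0.07, 0.13 and −0.29 for the glucocorticoid response and −0.25, −0.57, −0.66 and −0.38 for the oxidative stress response, in the same order of comparisons. Leaving out KO RA replicate 3, those of the last 2 comparisons were −0.20 and −0.17 for copper handling, so that the sign of the last turned, 0.15 and −0.07 for the glucocorticoid response and −0.66 and −0.42 for the oxidative stress response.

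The genes whose levels ran most like those of Mt2 were ranked by Pearson's r of log2 CPM over the 11 libraries without KO RA replicate 3, as a description. The 5 nearest were Copg2, a coatomer subunit (r = 0.92), Mt1 (0.92), Tpd52l2 (0.91), the centrosomal gene Cep72 (0.91) and the splicing factor Srsf10 (0.91). Over all 12 libraries r was 0.94 for Copg2, 0.92 for Mt1 and 0.87 for Cep72, but −0.07 for Tpd52l2 and 0.33 for Srsf10. The 5 nearest to Mt1 were Gm5822 (r = 0.94), 5830408C22Rik (0.94), Zfand6 (0.93), Tpd52l2 (0.93) and Spidr (0.93), with 0.44, 0.95, −0.15, −0.26 and 0.88 over all 12. Mt2 was seventh. Gm5822 and 5830408C22Rik had means under 3 CPM in every group. For the other members r with Mt2 over the 11 libraries was −0.13 for Mt3, 0.03 for Mtf1, 0.24 for Slc30a1 and −0.06 for Slc39a10. Spearman's rho was −0.16, 0.0091, 0.53 and −0.21, so that for Slc30a1 it was well above r.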

How the data were processed

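RNA of 12 NE-4C cultures was sequenced as poly-A libraries. The authors ran nf-core/rnaseq with default settings (STAR and Salmon) on GRCm39, and per gene they deposited estimated counts, whose name and values point to scaling from TPM, which corrects for transcript length, and which were not normalised between libraries. A count is then not a number of fragments: across 3851 genes that were above 0 in a single library, longer genes had lower values (Spearman −0.749). The submitters' processing notes name DESeq2 and GRCm39.

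Counts were rounded and tested in R 4.3.3 with edgeR 4.0.16 (filterByExpr, 16502 genes; TMM; a coefficient per group over all 12 libraries; robust quasi-likelihood, common dispersion 0.215), calling genes at a Benjamini-Hochberg adjusted p under 0.05 over all tested genes. In simulated data the steps were checked against known folds in KO NO against WT NO only. Those data held no RA effect and no library of deviating composition such as KO RA replicate 3, so the check does not cover these. Alternatives used DESeq2 1.42.0, limma 3.58.1, other filters, other library sets and a replicate block. CPM uses TMM factors, and log2 CPM a prior count of 2. Replicates are passages, so p-values measure the spread between cultures of one line. Replicate numbers did not pair libraries across groups (18 pairs, r between −0.17 and 0.07).

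The members and lists were chosen with earlier results of these data known. Named genes are the 6 members, Mt4, the zinc transporters called, highest in their family or never above 3 counts, the 5 genes most correlated with Mt2 and with Mt1, and Faf2. Slc30a2, Slc30a10 and Slc39a3 were named after their values were seen. So were the markers Cdh5, Emcn, Aqp4, S100b, Hbb-bt, Vim, Tagln, Otx2, Pax6, Rbfox3, Gja1 and Gfap. Positions and sites come from GRCm39 with GENCODE vM39, in which 56310 of the 57010 gene identifiers were found. Figures were drawn with matplotlib.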

Additional observations from a re-analysis of the deposited data

Results flagged for a closer look

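The response of Mt2 to RA ran in opposite directions in WT and KO cells, with every WT RA library above every WT NO library and every KO RA library below every KO NO library. The response in KO minus that in WT was −2.86 on the log2 scale, and this difference was not tested, because values of Mt2 in the RA groups chose the gene. Mt1 showed the same pattern of libraries, with a difference of −3.14 and an adjusted p of 0.271 for the interaction term in edgeR's quasi-likelihood test. That test is not independent of the choice of Mt2 either, since Mt1 ran closely with it. For Mt1 the separation of KO RA from KO NO was lost without TMM factors.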

How the results depend on the processing

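The numbers of genes called, in the first comparison (KO NO against WT NO), the second (WT RA against WT NO), the third (KO RA against KO NO) and the fourth (KO RA against WT RA), were 188, 67, 904 and 205. DESeq2 gave 1015, 924, 2632 and 1315 and limma-voom with sample quality weights 3566, 3562, 4531 and 2987. Only the libraries of the groups compared gave 718, 545, 196 and 16. At least 10 counts in every library gave 43 for the first, 36 for the second and 80 for the fourth, and no filter beyond 1 count in any library 43 for the second and 583 for the third. The replicate block gave 56, 10, 467 and 59, and no library correlated best with those of its own number. Leaving out 1 library gave 40 to 1521, 0 to 1868, 194 to 2776 and 19 to 1707, and the upper end of each range was reached without KO RA replicate 3. Of the members other than those given with no test, 0 were called in each comparison. DESeq2 called 1 in KO NO against WT NO, 1 in WT RA against WT NO and 1 for the difference of the RA response, limma-voom 3, 1 and 1, and only the libraries compared 1 and 1. Leaving out 1 library gave 0 to 1 in every comparison. Under the replicate block none was called. Of the zinc transporters 1, 0, 2 and 0 were called. DESeq2 called 3 in the first, 1 in the second and 4 in the fourth, and limma-voom 6, 3, 5 and 5. No filter beyond 1 count gave 0 in the first and 0 in the third, at least 10 counts 0 and 1, the replicate block 0 and 0, and only the libraries compared 0 in the third. Leaving out 1 library gave 0 to 3 in each of the 4 comparisons.

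Among the tested log2 fold changes of the members, 18 values changed sign. Among those given with no test, Mt3 in KO RA against WT RA was at 0.55 without WT RA replicate 1, and Slc30a1 at −0.09 without KO RA replicate 3 and −0.02 with limma-voom. In KO RA against KO NO, Mtf1 was at −0.0067 with no filter beyond 1 count and −0.23 with limma-voom, Slc30a1 at 0.040 with DESeq2 and 0.046 with DESeq2's size factors, and Slc39a10 at −0.15 with limma-voom. Limma-voom also gave 0.050 for Slc39a10 in WT RA against WT NO and −0.17 for Mtf1 and −0.20 for Slc39a10 in the difference of the RA response. Leaving out 1 library, Mtf1 ran from −0.20 to 0.0086 in WT RA against WT NO, from −0.23 to 0.27 in KO RA against KO NO and from −0.17 to 0.34 in the difference. Slc30a1 ran from −0.28 to 0.12 in KO RA against KO NO. Slc39a10 ran from −0.29 to 0.081, −0.17 to 0.34 and −0.033 to 0.48 in the same 3. Mt1 and Mt2 kept their direction under each alternative that was run, and Mt2 between −1.98 and −1.68 in KO RA against WT RA. The difference for Mt1 ran from −3.84 to −2.75. Of the 5 genes named as most like Mt2, 3 were among the 5 nearest over all 12 libraries and 1 by Spearman's rho, and of those most like Mt1, 1 and 1. The causes of these differences were not tested. With 3 libraries a group and a common dispersion of 0.215, a missed call does not show that a gene did not change. The values of Mt3 rest on 4 to 102 counts a library.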
